A study of Mus musculus with 12 samples.

Results

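Serglycin and the enzymes that build its heparin and chondroitin sulfate chains were followed in mouse bone marrow-derived mast cells (BMMCs) grown in interleukin 3 (IL3) or in IL3 with stem cell factor (SCF, the ligand of the receptor KIT). The members were chosen by name: the core protein gene Srgn and genes for chain polymerisation, chain modification and chondroitin sulfation, 10 in all. Probe sets named for a single gene were found for 9 of them, among 18194 genes on the array, and the other 1 was not analysed here. Those 9 genes had 18 such probe sets, of which 16 were bright enough to be tested. A further probe set that names Chst11 together with a second gene is not described.

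Single-colour Affymetrix arrays were hybridised with RNA from 6 samples labelled IL3 and 6 labelled IL3+SCF, all from C57BL/6 bone marrow. Both groups received IL3 at 30 ng/ml, for 4 to 6 weeks, so that IL3 alone is the control and no sample lacked it. The IL3+SCF group also received SCF, which the labels give as 100 ng/ml unless indicated otherwise. Purity by toluidine blue staining and surface receptors is given as above 99%. Whether the replicates were grown separately or from different mice is not stated in the labels. A p-value here therefore reflects the spread among these 12 samples alone, and that spread could be technical.

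Serglycin is the main proteoglycan of the mast cell granule, a small protein with a serine-glycine repeat to which long sulfated sugar chains are attached. A tetrasaccharide linker is built on the serine, and the chain is then extended either as heparan sulfate or heparin by the exostosins or as chondroitin sulfate by another set of polymerases. Heparin arises when N-deacetylase/N-sulfotransferases replace acetyl groups with sulfate, an epimerase converts glucuronic to iduronic acid, and O-sulfotransferases add further sulfate. The charged chains hold proteases and histamine in the granule, and mast cells that lack Srgn or Ndst2 store granule proteases poorly.

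The stretch of 250 bases before the annotated transcript start is shown for 4 members, a pair whose main signals hardly moved (Srgn and Ndst2) and a pair that rose (Hs6st1 and Chst12), so that their composition can be set beside their behaviour. Sequences are from RefSeq, build GRCm38.p6, 5′ to 3′ on the gene's own strand. Capitals mark a GC box (GGGCGG on either strand) and an E-box (CANNTG). They lie at chr10:62527446-62527695 (minus strand) for Srgn, chr14:20734563-20734812 (minus) for Ndst2, chr1:36068150-36068399 (plus) for Hs6st1 and chr5:140505359-140505608 (plus) for Chst12. The Srgn window is the first of 2 listed for that gene.
Srgn: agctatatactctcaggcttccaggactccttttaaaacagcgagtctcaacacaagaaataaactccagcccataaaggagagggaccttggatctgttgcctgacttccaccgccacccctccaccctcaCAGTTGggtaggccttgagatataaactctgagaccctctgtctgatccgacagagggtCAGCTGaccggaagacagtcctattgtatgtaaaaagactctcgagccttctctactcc
Ndst2: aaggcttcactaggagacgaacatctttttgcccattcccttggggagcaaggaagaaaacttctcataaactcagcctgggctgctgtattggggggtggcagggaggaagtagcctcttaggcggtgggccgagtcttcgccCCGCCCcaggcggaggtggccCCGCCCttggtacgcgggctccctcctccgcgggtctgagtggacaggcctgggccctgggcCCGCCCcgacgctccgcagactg
Hs6st1: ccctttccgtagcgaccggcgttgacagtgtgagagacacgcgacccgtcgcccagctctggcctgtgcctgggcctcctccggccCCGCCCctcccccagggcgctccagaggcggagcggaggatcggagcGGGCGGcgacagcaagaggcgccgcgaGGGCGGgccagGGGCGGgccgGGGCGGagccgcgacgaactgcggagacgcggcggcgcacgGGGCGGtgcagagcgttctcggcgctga
Chst12: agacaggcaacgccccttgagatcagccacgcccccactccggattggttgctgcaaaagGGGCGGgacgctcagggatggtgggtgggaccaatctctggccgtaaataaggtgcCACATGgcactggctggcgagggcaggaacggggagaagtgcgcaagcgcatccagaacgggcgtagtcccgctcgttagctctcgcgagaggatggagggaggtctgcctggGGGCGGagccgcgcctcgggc

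The Srgn window was 49.6% G or C with 5 CG dinucleotides, no GC box and 2 E-boxes. Ndst2 had 64.8% G or C and 3 GC boxes, Chst12 65.6% with 2, and Hs6st1 76.4% with 6 GC boxes and 37 CG dinucleotides. Over all 32851 windows of this length, median G or C content was 52.4% with 6 CG dinucleotides, 32.7% of windows held a GC box and 66.2% an E-box. Windows were found for 8 of the 9 members, and 6 of these genes had a GC box. They were all 4 that rose (Glce, Hs6st1, Chst11 and Chst12) and also Ndst2 and Hs2st1, which did not pass. These are counts of genes, while the 32.7% is a share of windows. An E-box was present in 5 of the 9 member windows. The motif GATAA, on either strand, was present in 1 member window, that of Ext2, and in 22.6% of all windows. A match is a description of the letters only.

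With SCF, signals of 5 of the 16 tested member probe sets rose and 0 fell (limma, Benjamini-Hochberg adjusted p below 0.05 over all 27226 probe sets kept), against 17.2% of all probe sets that rose and 13.6% that fell. At an unadjusted p below 0.05 (limma) 5 were also higher and 0 lower. The share of all probe sets or genes at that threshold was not counted. Unadjusted counts, here and for the lists below, therefore have no background to be set against. The risen probe sets belonged to Glce (both tested), Hs6st1, Chst11 and Chst12, with folds from 1.15 to 1.61. The dimmer Glce probe set was tested only because its SCF arrays were bright. None of the 16 changed by at least 2-fold, and only 1131 of the 27226 kept probe sets did, so this does not set the members apart. The median log2 change was 0.117 over the member probe sets and 0.043 over all kept probe sets. With 1 probe set per gene, the brightest, 4 of 9 members rose and 0 fell, beside 18.9% and 16.6% of 11430 genes. Centring each array on its median left 2 member probe sets risen, those of Chst12 and the dimmer one of Glce, and Glce, Hs6st1 and Chst11 lost the call on their brightest probe sets. Changes are log2 differences of (signal + 16), which understate the change of dim probe sets, and signals of different probe sets share no common scale.

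**Figure D1:**
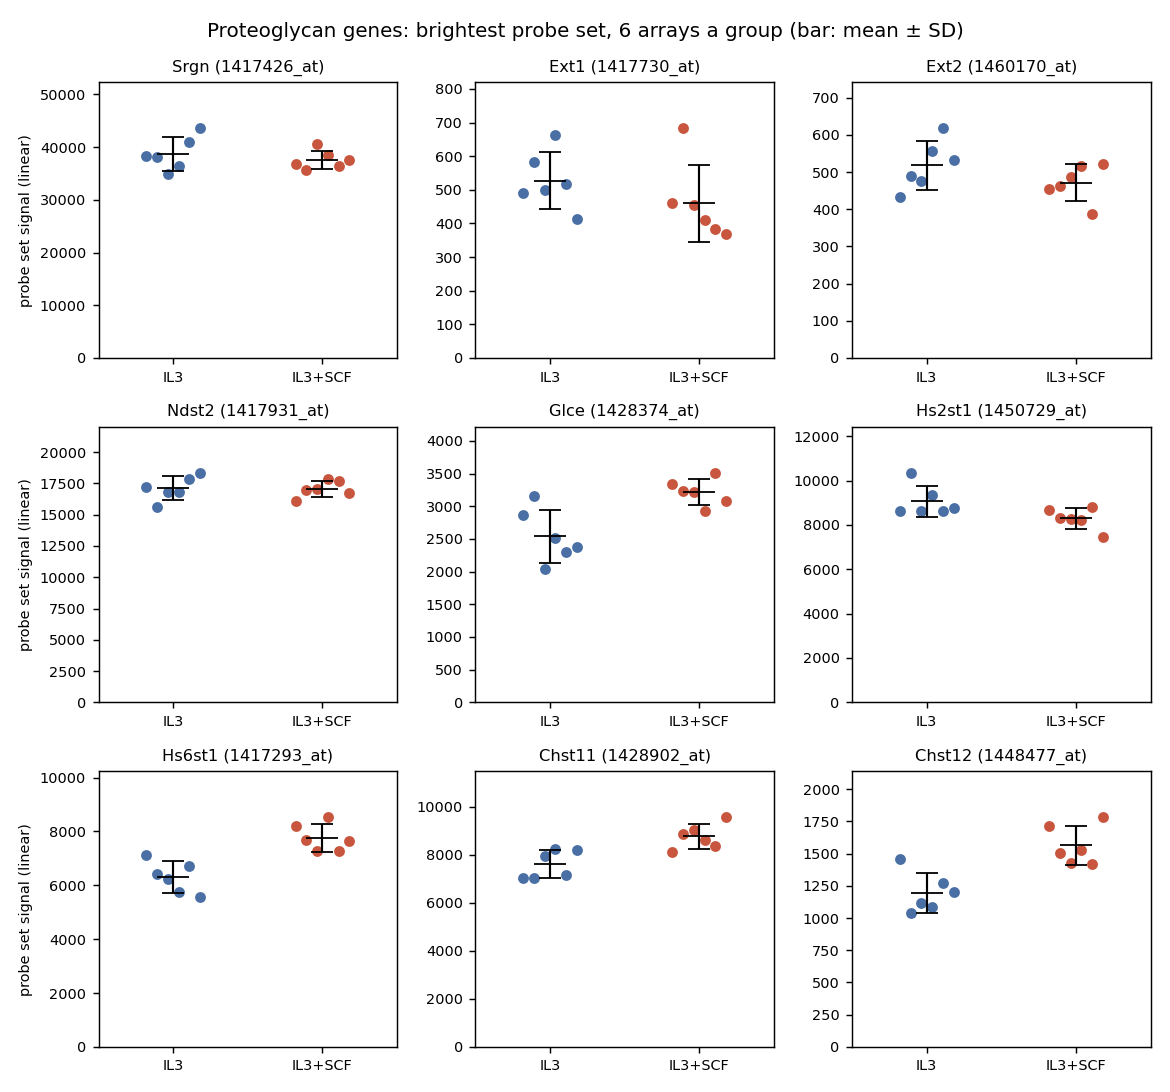
Signal (linear axis from 0) of the brightest probe set of each of the 9 members, 1 point for each of 6 IL3 arrays (blue) and 6 IL3+SCF arrays (red), with mean ± SD as bars. Srgn and Ndst2 overlap fully, while every Hs6st1 point with SCF lies above every point in IL3.

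The core protein transcript was among the brightest on the arrays and did not move detectably. Srgn signals ran from 34838 to 43588 in IL3 (median 38186) and from 35657 to 40629 with SCF (median 37178). The SCF arrays all lay inside the IL3 range. Group means were 38701 ± 3157 in IL3 and 37597 ± 1767 with SCF (SD, n = 6), a log2 change of -0.039 ± 0.065 (SE; limma adjusted p = 0.694). The 95% interval of the ratio ran from 0.883 to 1.07. The probe set stood at the 99.9th percentile of brightness, below an array maximum with a median of 63449.9, and whether such bright signals still respond in proportion was not tested.

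Ext1 and Ext2 encode the exostosins, which together form the heparan sulfate polymerase. The brighter probe set of Ext1 gave 413 to 663 in IL3 (median 508) and 369 to 683 with SCF (median 432). Of the SCF arrays, 3 lay below all IL3 arrays and 1, replicate 2, above them all. The log2 change was -0.21 ± 0.15 (SE; limma adjusted p = 0.317), and the second, dimmer probe set gave 0.028 (adjusted p = 0.935, limma). Ext2 signals lay at 434 to 618 in IL3 (median 511) and 387 to 522 with SCF (median 474), again overlapping. Its log2 change was -0.13 ± 0.095 (SE; limma adjusted p = 0.334, 95% interval -0.335 to 0.076). A dimmer Ext2 probe set pointed the other way, at 0.62 ± 0.35 (SE, limma adjusted p = 0.206), with 1 IL3 array at 21.1 and the other IL3 arrays at 136 to 194. The third Ext2 probe set was dim on all 12 arrays, dim meaning at or below an array's 40th percentile of signal, and was not tested. The within-array difference between Ext2 and Ext1 changed by 0.078 on the log2 scale (exact permutation test, two-sided, p = 0.669, adjusted over 2 pairs 0.669). It was 0.334 when the probe sets of a gene were averaged (exact permutation test, adjusted p = 0.16) and 0.2 without IL3+SCF replicate 2, and no alternative passed.

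Ndst2 is the N-deacetylase/N-sulfotransferase that mast cells need to make heparin. Its single probe set read 15622 to 18347 in IL3, with a median of 17009, and 16116 to 17876 with SCF, with a median of 17017. The IL3 arrays enclosed the SCF arrays. Means were 17102 ± 947 and 17077 ± 636 (SD, n = 6), at the 98.5th percentile of brightness. The fitted ratio was 0.999, with a 95% interval of 0.919 to 1.09 (limma adjusted p = 0.99). That interval was the narrowest among the 16 tested probe sets.

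Glce encodes the epimerase that turns glucuronic into iduronic acid along the chain. Its brighter probe set lay between 2039.5 and 3149.7 in IL3 (median 2445) and between 2926 and 3512 with SCF (median 3226). With SCF, 4 arrays exceeded all IL3 arrays. The mean rose from 2542 ± 405 to 3219 ± 203 (SD, n = 6), a log2 change of 0.35 ± 0.099 (SE; 1.28-fold; limma adjusted p = 0.0167). The second probe set, near the dim limit, read 53.6 to 91.3 in IL3 and 92.1 to 139 with SCF, without overlap. All SCF arrays lay above all IL3 arrays for 8.93% of the kept probe sets. It rose by 0.685 ± 0.13 on the log2 scale (SE; limma adjusted p = 0.0015) and was dim on 5 of the IL3 arrays. Another Glce probe set was dim on 11 of 12 arrays and was not tested. The rise of the brighter probe set rested on some arrays: it came to 0.255 (limma adjusted p = 0.083) when IL3 replicates 3 and 6 were left out, and to 0.319 (adjusted p = 0.0637) when IL3 replicates 4 and 5 were.

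Hs2st1 and Hs6st1 add sulfate to the uronic acid and to the glucosamine of the chain. The brightest Hs2st1 probe set read 8628 to 10350.3 in IL3 (median 8701) and 7477 to 8798 with SCF (median 8292). With SCF, 4 arrays lay below all IL3 arrays, but the log2 change of -0.125 ± 0.065 did not pass (SE; limma adjusted p = 0.166). Its other 3 tested probe sets gave log2 changes of -0.056, -0.15 and 0.36, and none passed. Hs6st1 had a single probe set, which read 5578 to 7121 in IL3 (median 6327) and 7255 to 8527 with SCF (median 7671). Every array with SCF was above every array without, as for 8.93% of the kept probe sets. The mean went from 6306 ± 583 to 7761 ± 508 (SD, n = 6), a log2 rise of 0.30 ± 0.073 (SE; 1.23-fold; limma adjusted p = 0.00745). Median centring gave 0.278 with an adjusted p of 0.0617 (limma).

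Chst11 and Chst12 are sulfotransferases of chondroitin, the chain type that BMMC serglycin is known to carry in IL3. The bright Chst11 probe set read 7029 to 8237 in IL3 (median 7547) and 8138 to 9568 with SCF (median 8744). All SCF arrays but 1 were above all IL3 arrays. The log2 rise was 0.21 ± 0.066 (SE; 1.15-fold; limma adjusted p = 0.0305), and the dimmer probe set did not pass, at 0.26 ± 0.19 (limma adjusted p = 0.327). This was the least secure member call: it was lost in 9 of 23 alternatives, with adjusted p up to 0.194 (limma), among them the fits without IL3 replicate 1 or 2 and without IL3+SCF replicate 2, 3 or 6.

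Chst12 read 1041 to 1459.9 in IL3 (median 1156) and 1419 to 1782 with SCF (median 1518), where 4 arrays exceeded all IL3 arrays. Its mean rose from 1195 ± 154 to 1563 ± 152 (SD, n = 6), by 0.39 ± 0.092 on the log2 scale (SE; 1.31-fold; limma adjusted p = 0.00679). The call held in each of the 23 alternatives run. Within arrays, Chst12 minus Chst11 shifted by 0.179 on the log2 scale (exact permutation test, two-sided, p = 0.149, adjusted over 2 pairs 0.299). Without IL3 replicate 1 the shift was 0.26 (exact permutation test, adjusted p = 0.0433), and no other alternative passed. That array had the highest Chst12 and the lowest Chst11 signal in IL3, so leaving it out was bound to widen the shift.

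**Figure D2:**
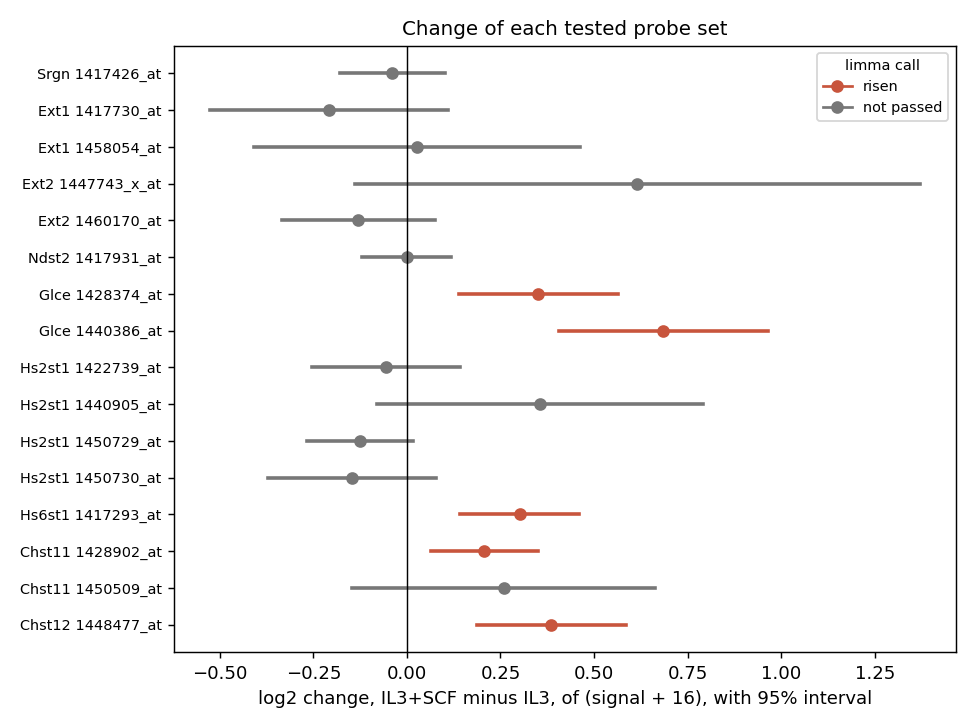
Log2 change (IL3+SCF minus IL3) with 95% limma interval for each of the 16 tested member probe sets, red where the probe set rose and grey where it did not pass. Srgn and Ndst2 have narrow intervals around 0, and the 5 risen probe sets lie between 0.207 and 0.685.

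The rest of the pathway was taken from 6 lists, covering the linkage region, other heparan genes, other chondroitin genes, sulfate and sugar nucleotide supply, other core proteins and breakdown. Of 92 genes listed, 86 had a probe set and 58 were tested. With SCF 11 rose, 9 fell and 38 did not pass (limma, adjusted over all genes), beside the 18.9% and 16.6% of all genes given above. The median log2 change was 0.071, and 0.023 over all genes tested. Larger changes were found among these 58 genes than among the 9 tested members, which are a smaller set.

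**Figure D3:**
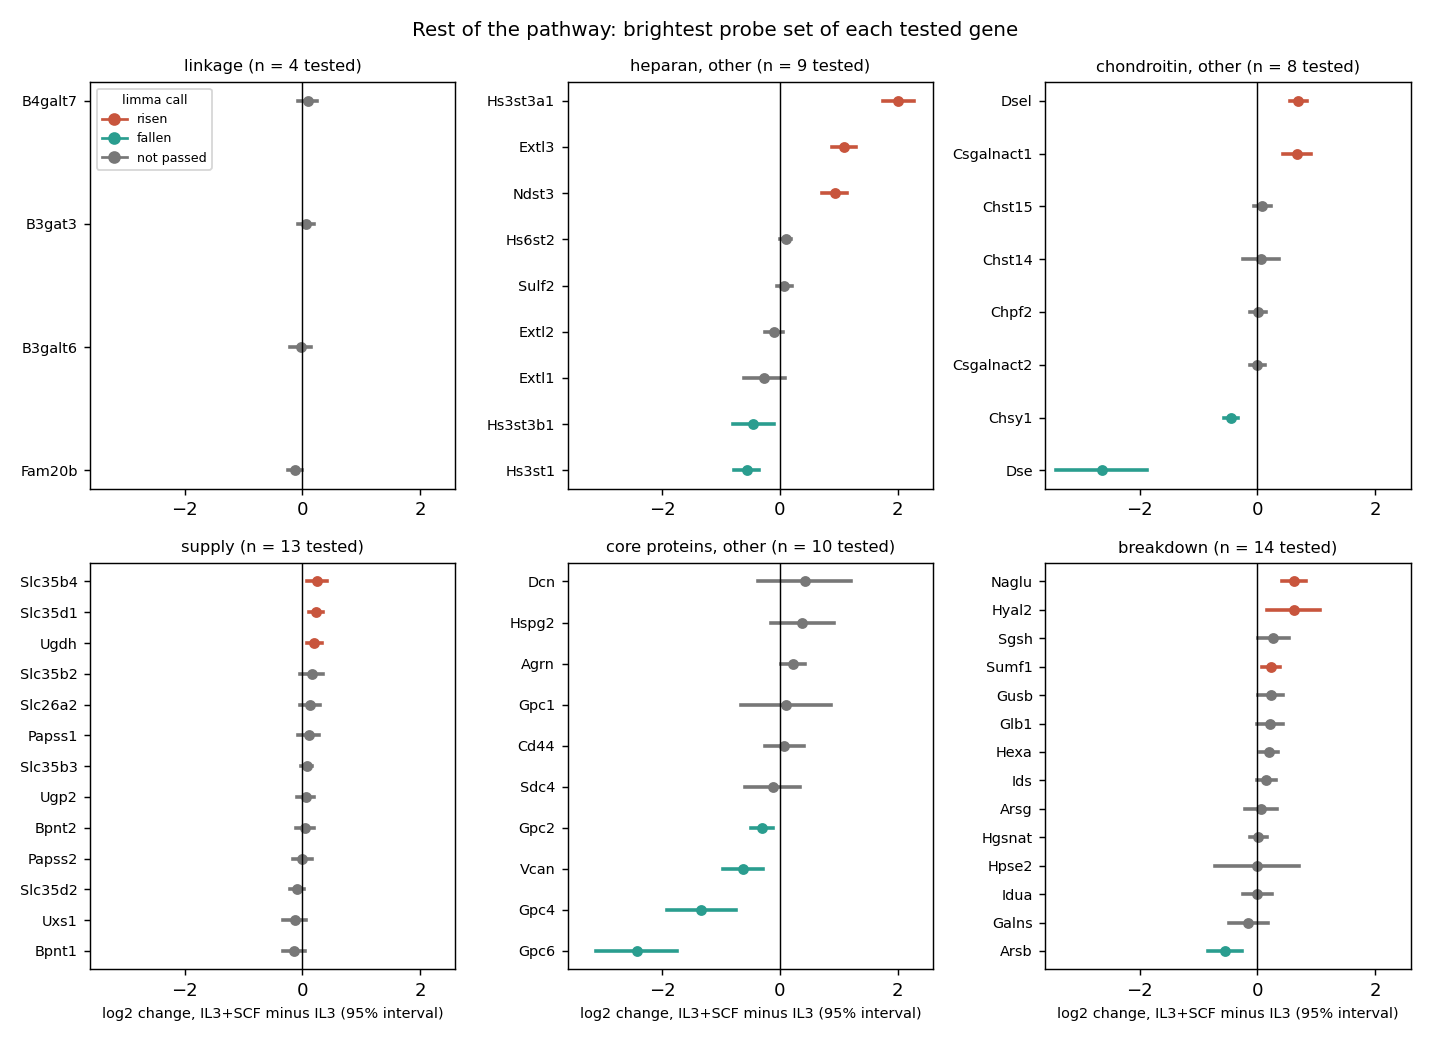
Log2 change (IL3+SCF minus IL3, brightest probe set, 95% limma interval) of the 58 tested genes of the 6 lists, red for risen, teal for fallen and grey for not passed. Changes range from -2.644 (Dse) to 2.015 (Hs3st3a1), and in the linkage panel each gene is grey.

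The linker is built by xylosyl-, galactosyl- and glucuronosyltransferases and a xylose kinase. Of its 7 genes 4 were tested, and 0 rose or fell (limma), with 1 lower at an unadjusted p below 0.05. The smallest p was that of the kinase gene Fam20b, at -0.12 (limma adjusted p = 0.0993), and its 2 dimmer probe sets went opposite ways. One fell, by 0.31 on the log2 scale (limma adjusted p = 0.00725), and the other did not pass, at 0.17 (limma adjusted p = 0.178).

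Among 9 tested other heparan genes 3 rose and 2 fell. Extl3, an exostosin-like enzyme that starts heparan chains, read 865 to 1306 in IL3 (median 1012) and 2082 to 2420.3 with SCF (median 2288). The groups did not overlap, with SCF above IL3 as for 8.93% of the kept probe sets. The log2 rise was 1.09 ± 0.096 (SE; limma adjusted p = 3.75e-06). Ndst3, a relative of Ndst2 with the same kind of activity, was named after its values were seen. It read 1181 to 1606 in IL3 (median 1386) and 2301 to 3154 with SCF (median 2521). Again no array overlapped, and the log2 rise was 0.93 ± 0.099 (SE; limma adjusted p = 1.77e-05), with 1.03 at a second probe set. The Ndst2 signal in the same arrays changed by -0.001.

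The Hs3st genes encode enzymes that add a rare, late sulfate group, and they moved in both directions. Hs3st3a1 was dim on all 6 IL3 arrays (20.3 to 35.2) and read 133 to 221 with SCF. It was at least 1.83-fold higher with SCF, measured against the dim level. The fit of the signals as read gave an adjusted p of 1.38e-07 (limma), but Hs3st3a1 was tested only because its SCF arrays were bright. Hs3st1, whose product makes the antithrombin-binding site of heparin, fell from 10009.9 ± 1218 to 6782 ± 874 (SD, n = 6). The log2 change was -0.56 ± 0.099 (SE; limma adjusted p = 0.000809), and 5 of the SCF arrays lay below all IL3 arrays. Hs3st3b1 fell by 0.449 on the log2 scale (limma adjusted p = 0.0473), a call lost in 17 of 25 alternatives, with adjusted p up to 0.145.

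Hs6st2, the second glucosamine sulfotransferase, was not called at its brightest probe set (0.098, limma adjusted p = 0.088). Its 3 dimmer probe sets each rose, by 0.355, 0.57 and 0.71 on the log2 scale (limma adjusted p = 0.00297, 0.00479 and 0.000176). Probe sets of this gene therefore disagreed in size, and it was named after its values were seen.

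Among 8 tested other chondroitin genes 2 rose and 2 fell. Dsel, an epimerase that makes dermatan sulfate, rose from 919 ± 91.9 to 1495 ± 86.6 (SD, n = 6; log2 change 0.70 ± 0.069, limma adjusted p = 1.1e-05). Csgalnact1, which adds the first galactosamine of a chondroitin chain, rose from 683 ± 66 to 1104 ± 192 (SD, n = 6; log2 change 0.67 ± 0.11, limma adjusted p = 0.00054). For both genes every SCF array was above every IL3 array, as for 8.93% of the kept probe sets. Chsy1, a chondroitin polymerase, read 22714 to 26282 in IL3 (median 24477) and 16645 to 19531 with SCF (median 17906). These ranges did not overlap, and the log2 change was -0.45 ± 0.059 (SE; limma adjusted p = 8.41e-05). The share of all probe sets with every SCF array below every IL3 array was not counted. Dse, the other dermatan epimerase, read 149 to 528 in IL3 and was dim on all 6 SCF arrays (7.47 to 74.5). It was at least 3.74-fold lower with SCF. The fit of the signals as read gave an adjusted p of 0.00011 (limma), but Dse was tested only because its IL3 arrays were bright. The 2 epimerase genes thus moved in opposite directions. Chst15, which makes the disulfated chondroitin sulfate E known from BMMCs, did not pass, at 0.083 (limma adjusted p = 0.352), and was named after its values were seen.

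**Figure D4:**
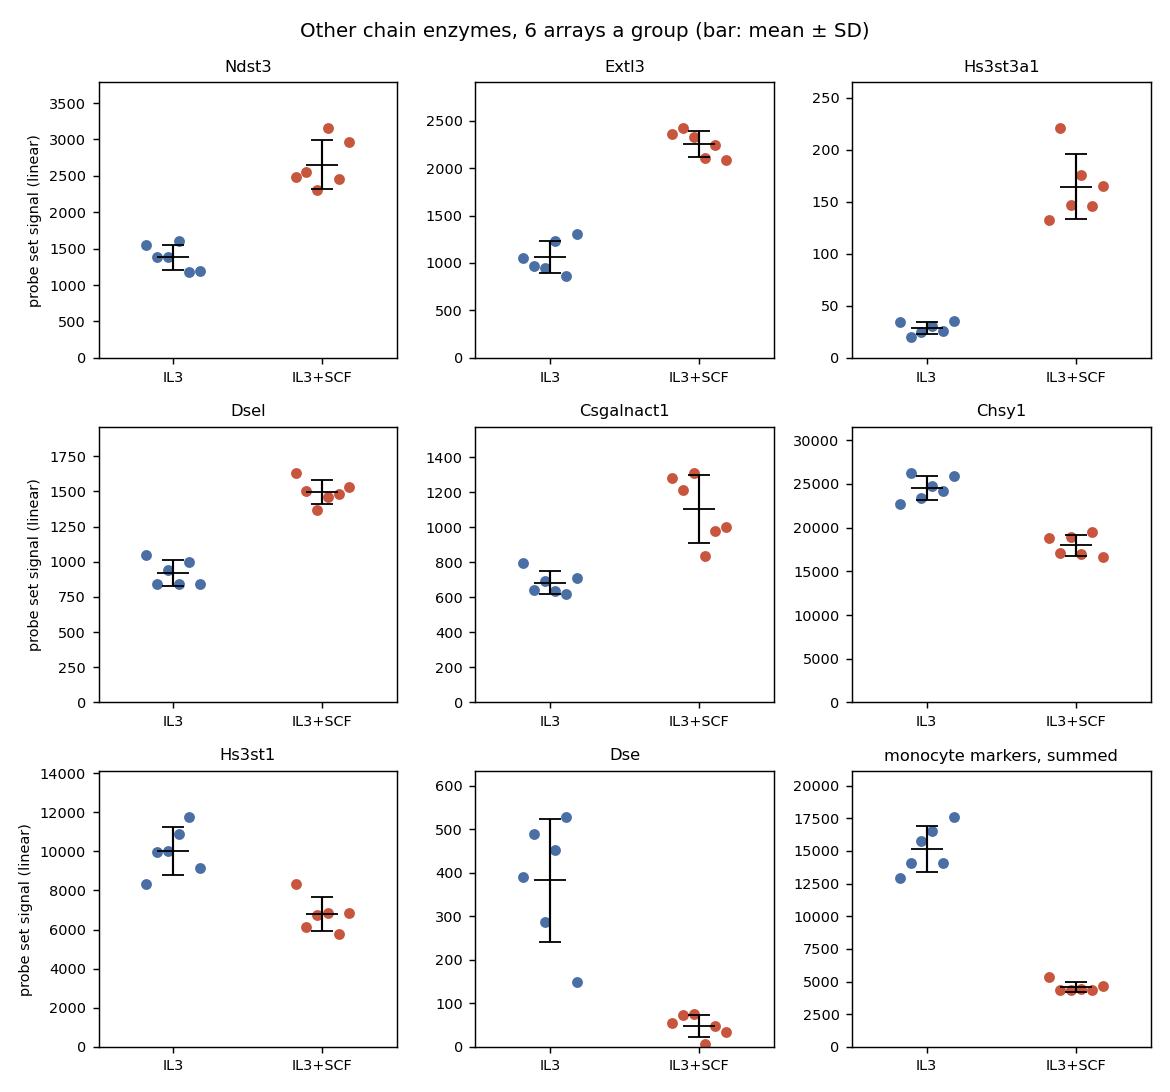
Signal (linear axis from 0) of 8 other chain enzymes and, in the last panel, the summed signal of 9 monocyte and macrophage markers, 1 point for each of 6 arrays a group, with mean ± SD as bars. Ndst3, Extl3, Hs3st3a1, Dsel and Csgalnact1 are higher on every SCF array, and Chsy1 and Dse are lower on every SCF array. The marker sum, in IL3 mostly Cx3cr1, Lyz1 and Lyz2, is also lower on every SCF array.

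Sulfate donors and sugar nucleotides are made and carried into the Golgi by the 13 tested supply genes, of which 3 rose and 0 fell (limma), with 0 lower also at an unadjusted p below 0.05. Slc35d1, a carrier of nucleotide sugars, rose by 0.235 ± 0.053 on the log2 scale (SE; limma adjusted p = 0.00386). Slc35b4, a carrier of the same kind, rose by 0.25 at its brightest probe set (limma adjusted p = 0.0203). Its other 2 probe sets gave 0.033 and 0.10 (limma adjusted p = 0.832 and 0.455), and the mean of the 3 gave 0.128 (limma adjusted p = 0.106). The Slc35b4 call was lost in 5 of 25 alternatives. Ugdh, which makes the glucuronic acid donor, rose by 0.21 (limma adjusted p = 0.0166). With median centring none of the 3 passed, and without IL3 replicates 3 and 6 only Slc35d1 did. Papss2, which makes the sulfate donor, changed by -0.001 (limma adjusted p = 0.994). Ugdh and Papss2 were named after their values were seen.

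Of 10 tested other core proteins 0 rose and 4 fell (limma), with 1 higher at an unadjusted p below 0.05. The risen were 1 with array weights, with the replicate number as a block, or without IL3 replicates 4 and 5. They were also 1 without IL3 replicate 1 or IL3+SCF replicate 5, and 2 without IL3+SCF replicate 6. Gpc6 and Gpc4 encode glypicans, heparan sulfate proteoglycans of the cell surface. Gpc6 read 148 to 287 in IL3 and was dim on all 6 SCF arrays, at least 2.33-fold lower. The fit of the signals as read gave an adjusted p of 8.24e-05 (limma), but Gpc6 was tested only because its IL3 arrays were bright. Without IL3 replicates 4 and 5 another Gpc6 probe set was the brightest, and it did not pass (-0.532, limma adjusted p = 0.139). Gpc4 fell from 279 ± 90.7 to 102 ± 36.8 (SD, n = 6; log2 change -1.33 ± 0.27, limma adjusted p = 0.00199). No SCF array reached the IL3 range of Gpc4, a placing whose share over all probe sets was not counted. Gpc2 (-0.30, limma adjusted p = 0.016) and Vcan were named after their values were seen. Without IL3 replicates 3 and 6 Gpc2 did not pass (adjusted p = 0.0961, limma). Vcan, a large chondroitin sulfate proteoglycan, fell by 0.629 on the log2 scale (limma adjusted p = 0.00693), as did 3 of its 5 tested probe sets, but the most variable of them gave -0.104 (adjusted p = 0.814, limma).

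Of 14 tested breakdown genes 3 rose and 1 fell (limma), with 6 higher and 1 lower at an unadjusted p below 0.05. Without IL3 replicate 5, 6 rose: Sgsh, Gusb, Hexa and Glb1 passed as well and Hyal2 no longer did. These 4 lysosomal enzyme genes were named after their values were seen. Naglu, a lysosomal enzyme of heparan sulfate breakdown, rose from 1509 ± 256 to 2306 ± 109.6 (SD, n = 6; log2 change 0.62 ± 0.094, limma adjusted p = 0.000266). Its SCF arrays all lay above its IL3 arrays, as for 8.93% of the kept probe sets. Hyal2, a hyaluronidase, rose by 0.62 on the log2 scale (limma adjusted p = 0.0337), a call lost in 14 of 24 alternatives. For Hyal2 4 of the 6 IL3 arrays read dim, and it was tested only because its SCF arrays were bright. Arsb, the sulfatase of dermatan and chondroitin sulfate, fell by 0.555 on the log2 scale (limma adjusted p = 0.0064). Sumf1, which activates sulfatases, rose by 0.23 (limma adjusted p = 0.0178). It did not pass with median centring or without IL3 replicates 3 and 6 (limma adjusted p = 0.164 and 0.0688). Ids, an iduronate sulfatase, did not pass at its brightest probe set (0.15), while 4 of its 5 tested probe sets rose. Both were named after their values were seen.

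The granule cargo list holds proteases and histamine synthesis, and 2 of its 6 tested genes rose and 0 fell (limma), with 0 lower also at an unadjusted p below 0.05. Mcpt4, a chymase, went from 443 ± 178 to 12652 ± 1306 (SD, n = 6, limma adjusted p = 5.08e-09). Cpa3, the mast cell carboxypeptidase, changed by -0.018 (limma adjusted p = 0.858). It stood at the 99.9th percentile of brightness, and, as for Srgn, response in proportion was not tested there.

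Array medians ran from 151 to 203 and the mean correlation of an array with its group from 0.9722 to 0.9883. Precision is limited by how many arrays there were. Of 9 listed mast cell markers 8 had a probe set, each was above the dim level on all 12 arrays, and 0 rose or fell (limma), with 1 higher at an unadjusted p below 0.05. Their summed signal was 204764 to 237109 in IL3 and 209523 to 236861 with SCF. Fcer1a and Cpa3 were as bright as Srgn, and whether signals at that level respond in proportion was not tested. The 9 monocyte and macrophage markers measured summed to 12898 to 17577 in IL3 and 4332 to 5333 with SCF. Of 7 tested, 3 fell and 1 rose, and C1qa was dim on all arrays. In IL3 most of that sum was the 3 fallen genes. Their means went from 6563 to 417 with SCF (Cx3cr1), 4887 to 1242 (Lyz1) and 2188 to 709 (Lyz2). Cd68 rose by 1.284 on the log2 scale (limma adjusted p = 2.82e-06), and Adgre1, Ccr2 and Ms4a7 did not pass. The 9 neutrophil markers summed to 250 to 6994 in IL3, where replicates 3 and 6 were the highest at 5666 and 6994, and to 188 to 313 with SCF, where 8 of them were dim on all arrays. Basophil markers summed to 18063 to 22567 in IL3 and 22119 to 24480 with SCF, with 2 of 3 tested risen (Cd200r3 and Il3ra). Most of that sum was Cd200r3, with means of 15944 in IL3 and 19710 with SCF. Mcpt8 pointed the other way without passing, at -0.59 (limma adjusted p = 0.307), and Itga2 was dim on all SCF arrays. Eosinophil markers summed to 1240.0 to 1837 in IL3 and 1211 to 1701 with SCF. The monocyte marker sum was lower with SCF, as were the signals of Dse, Chsy1, Hs3st1, Gpc4, Gpc6 and Vcan. Among the IL3 arrays these genes did not all share the order of that sum. On replicate 6, where the sum was highest, Dse (149) and Vcan (3237) were lowest. On replicate 1, where the sum was lowest, Hs3st1 (8312) and Chsy1 (22714) were lowest. The basophil sum was higher on most SCF arrays. What part cells of these types had in these results was not tested. In such bulk RNA, fewer cells of a type and less RNA per cell cannot be told apart.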

How the data were processed

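The deposited table holds linear intensities of 45101 probe sets on 12 single-colour arrays, 64 of them controls. Per the labels' protocols, targets were amplified from 50 ng of RNA, and the submitters' processing notes name GCOS 1.4. How background and scaling were set was not given in the sources used here. On every array the mean trimmed by 2% at each end was 1250.01. Array medians spanned 0.39 on the log2 scale, under a limit of 0.5, so no further normalization was applied.

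Signals were taken as log2(signal + 16). Probe sets above the 40th percentile of the array (61.1 to 102) on 6 or more arrays were tested, 27226 in all. In the annotation given, 34958 probe sets had 1 symbol, 932 several and 9211 none. All 9 members matched RefSeq (GRCm38.p6). limma 3.58.1 in R 4.3.3 compared the groups (lmFit and eBayes, two-sided, no covariates, Benjamini-Hochberg, threshold 0.05) over all kept probe sets, and again over 11430 genes at the brightest single-symbol probe set. The script was tested on simulated data. A gene dim in 1 group is given as "at least", against the higher of its own signal and the dim level on each array of that group. The p-value of such a gene comes from the fit of the signals as read, and the gene passed the filter through the other group only. Of 3 planned isoenzyme pairs 2 were tested, by exact permutation, where 0.00216 is the smallest p possible. Figures used Python 3.11.15 and matplotlib 3.10.9.

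Every member was named, with at most 2 risen and 2 fallen genes of each pathway list by size of change, or the smallest p where none passed; genes outside this rule are marked. The members and lists were chosen with earlier results of these data known. No arrays were identical. The 25 alternatives changed scaling, pseudocount, filter, model, probe set choice, or left out arrays.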

Additional observations from a re-analysis of the deposited data

Results flagged for a closer look

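In 64 checks of a group of 6 arrays, 4 single arrays stood far from the others of their group by Dixon's criterion, where chance gives about 1 in 20. The brighter Ext1 probe set read 683 on IL3+SCF replicate 2, while the other arrays of that group read 369 to 459. The dimmer tested Ext2 probe set read 21.1 on IL3 replicate 5, against 136 to 194 on the others. The dimmest Hs2st1 probe set read 137 on the same array, IL3 replicate 5, against 269 to 348. The brighter Gpc4 probe set read 38.6 on IL3+SCF replicate 1, against 93.2 to 144. The Ext1, Ext2 and Hs2st1 probe sets did not pass the test, and Gpc4 fell whichever array was left out.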

How the results depend on the processing

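No called change of a member or pathway gene reversed. Member probe sets risen numbered 2 with median centring, 3 without IL3 replicates 4 and 5, and 3 to 5 over all fits that left out arrays, against 5 as reported. Pathway genes risen numbered 6 with median centring and 17 with array weights, against 11, and pathway genes fallen 5 with a 60th percentile filter, which tests fewer genes, against 9. Of all genes, 1369 rose and 1409 fell with median centring, against 2155 and 1895. The cause of the other shifts was not tested. Over the fits leaving out 1 array, Chst12 minus Chst11 ran from 0.13 to 0.26 and Ext2 minus Ext1 from -0.006 to 0.2. With the replicate number as a replicate block, 4 member probe sets rose (Chst11 was lost, limma adjusted p = 0.0589), 9 pathway genes rose and 8 fell. Whether the numbers pair the samples is not known. Correlations of the deviations of same-numbered arrays from their group means ran from -0.241 to 0.31. Differently numbered arrays were not compared, so these values cannot decide it. Of single results under alternatives, 351 member values kept their side of the threshold and 13 fell below it, and 1497 pathway values kept it, 44 rose above it and 45 fell below it. Signal near the dim level limits the second probe sets of Glce, Ext1 and Ext2 and the probe set of Hyal2.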

Other observations

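Within the IL3+SCF group, replicates 1 to 3 were all above replicates 4 to 6 for 14 of the 93 listed genes tested, and all below them for 0. This split was picked after the values were seen and not tested. The share of all genes on the arrays that divide in this way was not counted, so the split cannot be called particular to these genes. Values of 3 of the 14 follow. Sdc4, a syndecan of the cell surface, read 3961, 3061 and 3332 on replicates 1 to 3 and 1678, 1740 and 1853 on replicates 4 to 6. Hdc, which makes histamine, read 10834, 9145 and 9211 and then 5702, 4830 and 4300. Csgalnact1 read 1283, 1212 and 1311 and then 835, 981 and 1004. The labels of the 6 samples give no difference between them.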
